A study of Vitis vinifera with 24 samples.

Results

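The trehalose effect within salt-treated grapevine leaves was measured as the difference between leaves given trehalose together with NaCl and leaves given NaCl without it. The comparison held 6 of the 24 RNA-seq libraries of the series, 3 per group, and the libraries were taken by their treatment labels and not by any measured value. All leaves came from self-rooted greenhouse cuttings of Vitis vinifera 'Thompson Seedless', a seedless cultivar. The other groups used here were trehalose without stress, trehalose with cold (4 ℃), cold, trehalose with PEG6000, PEG6000 and an untreated control, with 3 replicates each. Treated leaves were taken at 48 h; the control has no stated time. Doses, the order of trehalose and stress, and whether replicates were separate plants are not stated in the labels. P-values therefore measure the spread between these samples.

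Trehalose joins a pair of glucose units into a non-reducing sugar, which most flowering plants hold in traces. Its precursor trehalose 6-phosphate acts as a signal of sucrose supply in plants and inhibits SnRK1, a protein kinase that adjusts metabolism to low energy. Salt in the root zone acts on leaves through the lower water potential it creates and through the sodium and chloride that build up in them. PEG6000, a polyethylene glycol, lowers the water potential of the medium without adding those ions, and cold acts by another route. The design sets the trehalose effect under NaCl beside that in each of these settings.

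Expression was available as FPKM (fragment counts scaled to transcript length and to the mapped fragments of the library), so sequencing depth is unknown. Of 35840 genes in the table, 20053 reached 1 FPKM in at least 3 of the 24 libraries and were tested on the log2(FPKM + 1) scale, which understates the change of low genes. The table gives identifiers without names or functions, and 0 identifiers matched the RefSeq gene table at hand. For that reason known pathways, and markers that would check the leaf label, could not be read, and at most 2 identifiers per direction are printed for each test. The 6 libraries summed to between 600768 and 617466 FPKM. Pearson correlations were 0.996 within both groups and 0.969 to 0.970 between them. Genes at 1 FPKM or more numbered 17563 ± 14 with trehalose and NaCl and 17783 ± 15 under NaCl (SD, n = 3 each), and the median SD of a gene among replicates was 0.066 and 0.064 on the log2 scale.

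With trehalose, salt-treated leaves held many more strongly lowered than strongly raised transcripts. At least 2-fold, 717 genes fell (3.58% of those tested) and 173 rose (0.863%) relative to NaCl leaves. A further step up, 128 genes were at least 4-fold lower and 6 at least 4-fold higher, and at 8-fold the counts were 17 and 1. Limma called 10416 of 20053 genes in all at a Benjamini-Hochberg adjusted p below 0.05, 3992 higher (19.9%) and 6424 lower (32.0%). Over all 20053 genes, called or not, the 95% interval of the change lay within 1.5-fold for 16092 (80.2%) and within 1.2-fold for 6572 (32.8%). The surplus of lower over higher calls depended on the scaling of the libraries, with 4998 higher and 5152 lower by median-of-ratios scaling and 5704 and 4684 by quantile normalization. At 2-fold it did not turn, with 180 and 643 genes by median-of-ratios scaling and 215 and 639 by quantile normalization. The 2-fold counts grew to 444 higher and 1238 lower with a pseudocount of 0.1. In whole leaves, fewer cells of a type and less RNA per cell cannot be told apart.

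**Figure D1:**
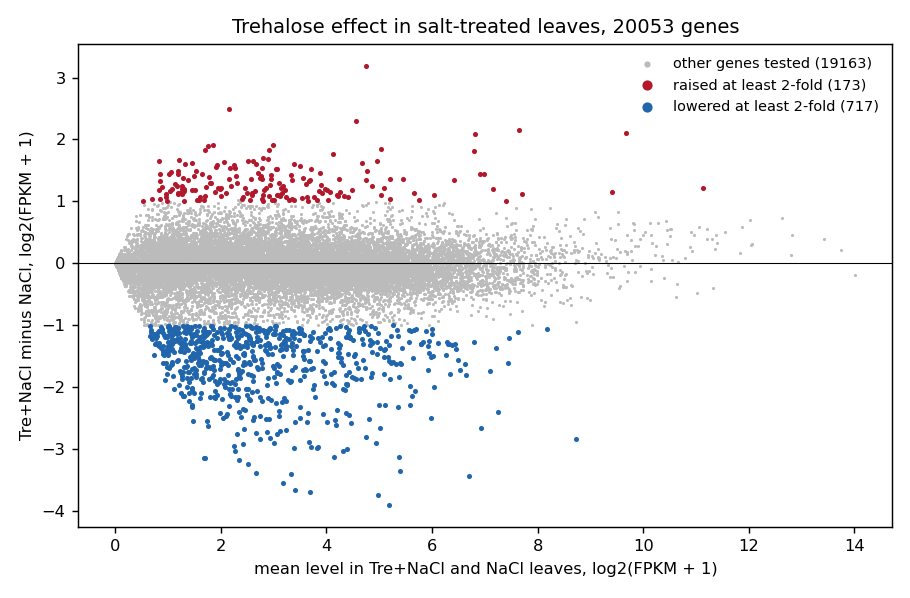
Each point is 1 gene, with its mean level in trehalose+NaCl and NaCl leaves on the horizontal axis and the trehalose+NaCl minus NaCl difference on the vertical axis, both on the log2(FPKM + 1) scale. The 717 lowered genes reach a log2 change of -3.90, while of the 173 raised genes 1 passes 3, at 3.19.

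The change was not confined to weakly expressed genes. Of genes averaging 100 FPKM or more over all 24 libraries, 34 of 884 (3.85%) fell 2-fold and 13 (1.47%) rose 2-fold, against 36 of 1973 (1.82%) and 8 (0.405%) of those averaging below 1 FPKM, where the +1 of the scale compresses changes. Taking the higher of the 2 group means, 37 lowered and 12 raised genes reached 100 FPKM, and 389 lowered and 88 raised genes stayed below 10 FPKM. The median change was -1.42 (quartiles -1.82 and -1.19) for lowered and 1.24 (quartiles 1.11 and 1.45) for raised genes. In 17 genes each NaCl library held 5 FPKM or more while the 3 trehalose+NaCl libraries all stayed under 1 FPKM, and 0 genes did the reverse. The 17 genes had group means of 0.0735 to 0.903 FPKM with trehalose and NaCl and 5.5 to 14.1 FPKM under NaCl, and 11 of them were also below 1 FPKM in every control library.

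The largest falls belonged to Vitvi14g02893 and Vitvi02g00393. Vitvi14g02893 was at 9.51, 7.85 and 7.94 FPKM with trehalose and NaCl, against 146, 124 and 148 FPKM under NaCl, a log2 change of -3.90 (SE 0.08, limma adjusted p = 1.24e-21). No library of one group came near the other, and the gene stood at 3.09 ± 0.39 FPKM with trehalose and 3.25 ± 0.27 FPKM in control leaves (SD, n = 3 each). Vitvi02g00393 was at 7.59, 7.91 and 7.31 FPKM with trehalose and NaCl, against 116, 107 and 120.3 FPKM under NaCl (log2 change -3.74, SE 0.13, limma adjusted p = 2.56e-17). Here too the groups were widely separated.

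Of the raised genes, Vitvi05g01931 and Vitvi07g04602 changed the most. Vitvi05g01931 was at 81.6, 87.8 and 72.6 FPKM with trehalose and NaCl, against 8.87, 7.14 and 7.91 FPKM under NaCl (log2 change 3.19, SE 0.11, limma adjusted p = 6e-17). Every trehalose+NaCl library also lay above the 39.9 ± 2.0 FPKM of trehalose leaves and the 30.3 ± 1.1 FPKM of control leaves (SD, n = 3 each). Vitvi07g04602 was at 9.19, 11.2 and 8.52 FPKM with trehalose and NaCl, against 0.809, 1.07 and 0.748 FPKM under NaCl (log2 change 2.50, SE 0.14, limma adjusted p = 5.66e-13). The NaCl libraries were the lowest of all groups for both genes.

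**Figure D2:**
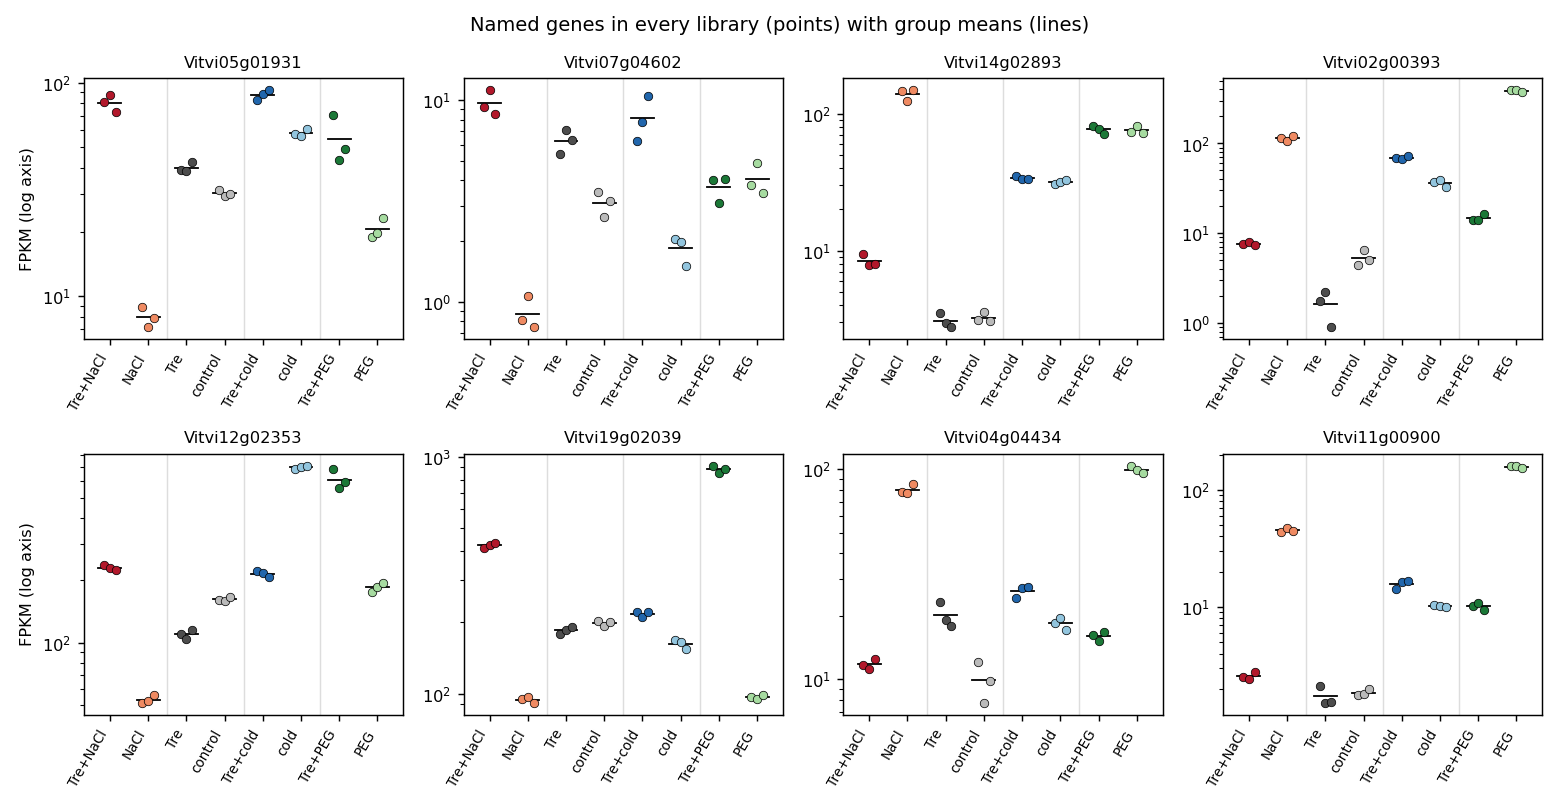
FPKM (log axis) of 8 genes in all 24 libraries, with a point per library and a line at each group mean; each treatment with trehalose stands left of its counterpart without it. The upper row holds the genes with the largest changes between trehalose+NaCl and NaCl leaves. The lower row holds those whose trehalose effect differed most between NaCl and no stress once the genes of the upper row were left out. Genes needed a mean of 5 FPKM or more in trehalose+NaCl or NaCl leaves. They also needed no overlap between these groups, so in each panel the 3 red and the 3 orange points do not overlap.

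As a group, the lowered genes had low levels in leaves without stress. Their median level was 2.16 FPKM with trehalose and NaCl (quartiles 0.813 and 6.49) and 8.72 FPKM under NaCl (4.12 and 23.4), beside 1.30 FPKM with trehalose and 1.49 FPKM in control. They made up 0.852 ± 0.0069% of the library total with trehalose and NaCl and 3.02 ± 0.012% under NaCl (SD, n = 3 each), with 0.576 ± 0.0071% in trehalose and 0.685 ± 0.0052% in control leaves. Any comparison of NaCl or trehalose+NaCl leaves with control shares libraries with the choice of these genes, so the levels are given side by side and not tested. The raised genes had a median of 9.98 FPKM with trehalose and NaCl and 3.19 FPKM under NaCl, beside 10.2 FPKM with trehalose and 6.09 FPKM in control. Their share of the library total was 1.73 ± 0.0087% with trehalose and NaCl and 0.648 ± 0.0041% under NaCl, beside 2.07 ± 0.0021% with trehalose and 1.84 ± 0.011% in control. In both sets the share with trehalose and NaCl lay nearer to the shares without stress than the NaCl share did. Both sets were chosen from the NaCl and trehalose+NaCl libraries, so this too was not tested. The 10 most abundant genes of each library held 14.1 ± 0.11% of its FPKM with trehalose and NaCl and 12 ± 0.20% under NaCl, and the part of this shift in the results was not tested beyond the scalings above.

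**Figure D3:**
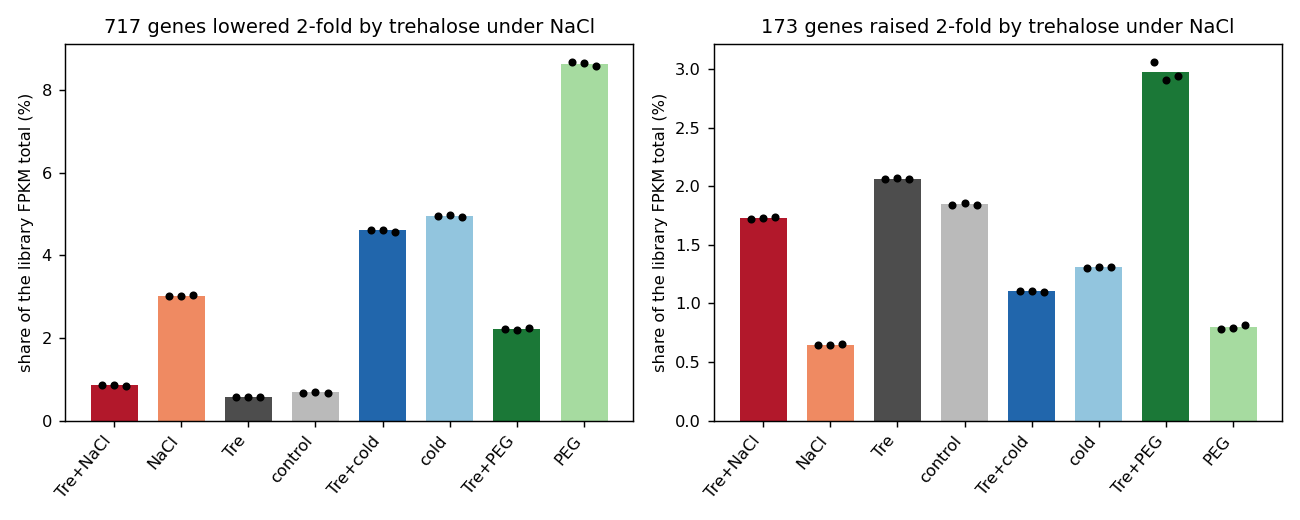
Share of the library FPKM total (%) held by the 717 lowered and the 173 raised genes; bars are group means and points are the 3 libraries of a group. The lowered genes hold 0.852% with trehalose and NaCl and 3.02% under NaCl, and reach 8.63% under PEG6000, whose libraries are not in the contrast that chose them.

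PEG6000 and cold libraries were not in the contrast that chose these genes, though they entered the expression filter and the estimate of spread. Both stresses moved the lowered genes mostly upwards. PEG6000 raised 635 of the 717 lowered genes at least 2-fold over control (88.6%, against 14.4% of all genes tested) and lowered 5 (0.697%, against 7.71%), a median log2 change of 2.72 where that of all genes was 0.05. These 635 were 22% of all genes raised 2-fold by PEG6000. In the cold, 561 of the 717 (78.2%) were higher than in control, as were 6295 of all 20053 genes tested. At least 2-fold, 348 rose (48.5%, against 11.8% of all genes) and 10 fell (1.39%, against 13.5%). Their median log2 change was 0.95 where that of all genes was -0.20. Of the 173 raised genes, PEG6000 lowered 56 at least 2-fold (32.4%) and raised 18 (10.4%), and cold lowered 65 (37.6%) and raised 31 (17.9%). The PEG6000 and cold contrasts share their control libraries with each other, and no library with the trehalose contrast under NaCl.

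**Figure D4:**
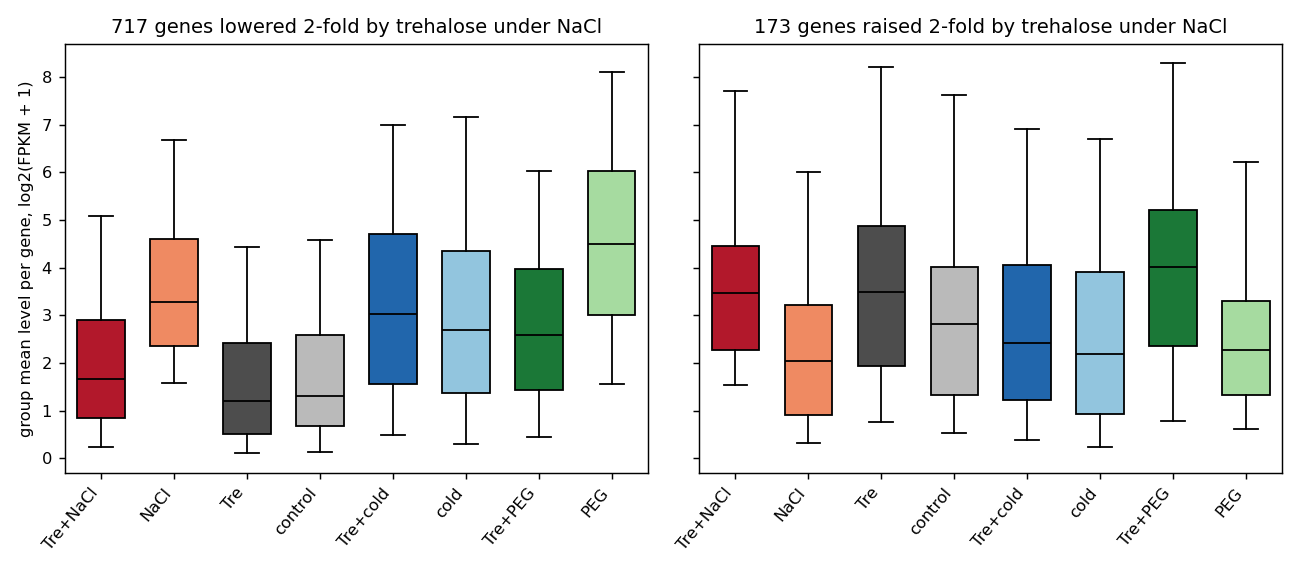
Levels of the 717 lowered and 173 raised genes in each group, as the group mean of log2(FPKM + 1) per gene. Boxes show the median and quartiles, whiskers the 5th and 95th percentiles. The lowered genes are highest under PEG6000 (median 4.49) and lowest with trehalose alone (1.2), and the trehalose+NaCl median of 1.66 lies below the 3.28 of NaCl leaves.

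Without stress, limma called 5818 genes for trehalose, against 10416 under NaCl. The trehalose effect without stress differed from that under NaCl for much of the transcriptome. Trehalose leaves were taken at 48 h, while the control has no stated time. Trehalose and sampling time cannot be told apart there, and the same holds for PEG6000 and cold against control. The root mean square log2 change over all genes was 0.45 under NaCl and 0.27 without stress. Limma called the difference between both effects for 8616 genes, of which 825 (4.11%) differed at least 2-fold towards a lower and 97 (0.484%) towards a higher value under NaCl. These counts were 1502 and 224 with a pseudocount of 0.1, and 507 and 71 when a mean of 5 FPKM was required. Of all called differences 33.2% were towards a higher value, against 48.5% by median-of-ratios scaling and 54.5% by quantile normalization. At least 2-fold, trehalose alone lowered 22 genes (0.110%) and raised 205 (1.02%), against 717 lowered and 173 raised under NaCl. It thus gave far fewer 2-fold falls but not fewer rises. On this scale such a fall was out of reach for the 224 of the 717 genes below 1 FPKM in every control library. Rises have no such floor. The part of this floor in the 22 falls and the 825 differences was not tested. Across the 20053 genes, which are not replicates, both effects correlated with a Pearson's r of 0.30 and a Spearman's rho of 0.18, and they share no library.

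Most of the raised genes were also higher with trehalose in leaves without stress, and a minority of the lowered genes was also lower. Of the 173 raised genes, 116 (67.1%) were also higher with trehalose than in control, against 16.7% of all genes tested, and 7 were lower. At least 2-fold, 44 rose, which is 25.4% of the raised genes, against 1.02% of all genes, and 21.5% of those raised by trehalose alone, and 0 fell. Of the 717 lowered genes, 258 (36.0%, against 12.3% of all genes) were lower with trehalose than in control, 84 (11.7%, against 16.7%) were higher and 375 were not called. Their median change was -0.13, where the lowered genes had -1.42 under NaCl. Their low level without stress limits such falls: the control median was 1.49 FPKM, and 224 of the 717 were below 1 FPKM in every control library. On the log2(FPKM + 1) scale a gene below 1 FPKM cannot fall 2-fold. At least 2-fold, 16 fell, 72.7% of the 22 genes so lowered by trehalose alone but 2.23% of the lowered genes, against 0.110% of all genes. Another 6 rose 2-fold (0.837%), a share near the 1.02% of all genes.

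The difference between both effects was most extreme for Vitvi14g02893 (-3.84) and Vitvi05g01931 (2.80), already described. After leaving out the genes named above, the next in line were Vitvi04g04434, Vitvi11g00900, Vitvi12g02353 and Vitvi19g02039. The ranking took genes with a mean of 5 FPKM or more in trehalose+NaCl or NaCl leaves and no overlap between these groups. Vitvi11g00900 was at 2.51, 2.43 and 2.79 FPKM with trehalose and NaCl, against 44.1, 46.8 and 44.5 FPKM under NaCl, while it stood at 1.73 ± 0.35 FPKM with trehalose and 1.86 ± 0.11 FPKM in control leaves (SD, n = 3 each). The difference between the effects was -3.62 (SE 0.10, limma adjusted p = 3.87e-18). For Vitvi04g04434 trehalose acted in opposite directions: 11.7, 11.2 and 12.5 FPKM with trehalose and NaCl, against 78.1, 77.1 and 84.8 FPKM under NaCl, but 20.1 ± 2.8 FPKM with trehalose and 9.89 ± 2.2 FPKM in control leaves (difference -3.63, SE 0.14, limma adjusted p = 1.05e-15). It fell under NaCl and rose without stress.

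On the positive side, Vitvi12g02353 was at 237, 228 and 224 FPKM with trehalose and NaCl, against 51.3, 52.3 and 56.1 FPKM under NaCl, and at 109.7 ± 5.4 FPKM with trehalose and 162 ± 4.5 FPKM in control leaves (difference 2.65, SE 0.08, limma adjusted p = 6.99e-18). It rose under NaCl and fell without stress. Vitvi19g02039 was at 410.3, 424 and 431 FPKM with trehalose and NaCl, against 95, 96.3 and 91.2 FPKM under NaCl, and at 185 ± 6.8 FPKM with trehalose and 198 ± 5.2 FPKM in control leaves (difference 2.25, SE 0.05, limma adjusted p = 9.87e-20). Its level with trehalose and NaCl exceeded that of every library without stress.

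Under PEG6000 the trehalose effect was larger over all genes, and it ran in the same direction for most of the lowered and raised genes. Of the 717 genes lowered under NaCl, 641 (89.4%) were lower with trehalose under PEG6000, against 32.9% of all genes tested, 44 (6.14%) were higher, against 43.6%, and 32 were not called. At least 2-fold, 512 fell, which is 71.4% of the lowered genes, against 8.70% of all genes, and 29.3% of the 1745 genes so lowered under PEG6000. Of the 173 raised genes, 137 (79.2%) were higher with trehalose under PEG6000 and 16 lower, and 106 (61.3%, against 10.9% of all genes) rose at least 2-fold. The correlation of the effects across genes was 0.61 (Pearson) and 0.64 (Spearman), again without a shared library. The root mean square change over all genes was 0.95 under PEG6000, against 0.45 under NaCl. For the 717 lowered genes the effect under NaCl minus that under PEG6000 had a median of 0.02, with 291 called higher and 274 lower. For the 173 raised genes this median was -0.14, with 68 higher and 78 lower. These differences share libraries with the choice of the genes.

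**Figure D5:**
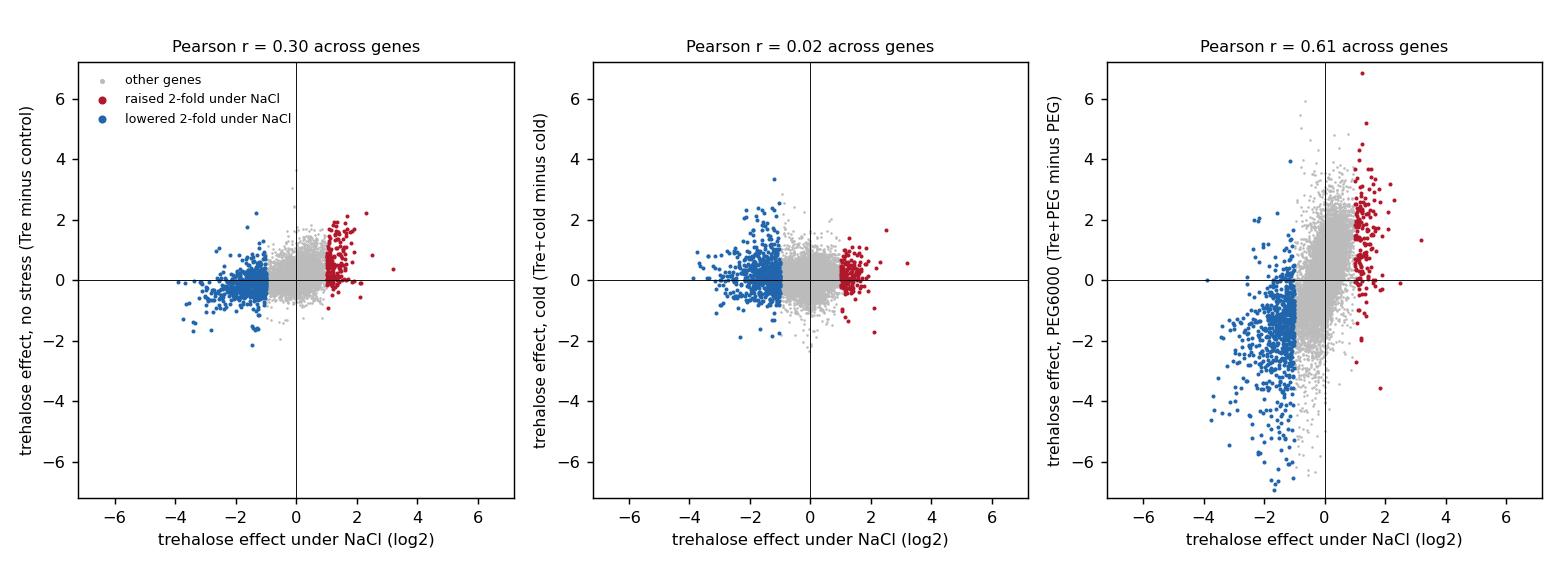
Trehalose effect under NaCl (horizontal axis) against the trehalose effect without stress, in the cold and under PEG6000 (vertical axes), in log2(FPKM + 1) differences for 20053 genes. The blue genes, lowered 2-fold under NaCl, lie mostly below 0 under PEG6000 and spread around 0 without stress and in the cold. Across all 20053 genes, Pearson's r is 0.61 for PEG6000, 0.30 without stress and 0.02 in the cold.

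The effects under NaCl and PEG6000 nevertheless differed for 12034 genes by limma, 1768 (8.82%) at least 2-fold towards a lower and 1016 (5.07%) towards a higher value under NaCl. The 2-fold counts were 860 and 553 when a mean of 5 FPKM was required. Calls at any fold numbered 8047 lower and 3987 higher as deposited, and 5253 lower and 6211 higher by median-of-ratios scaling. Among the lowered genes, 15 (2.09%) rose at least 2-fold with trehalose under PEG6000, a smaller share than the 10.9% of all genes. Vitvi14g02893, the gene with the largest fall under NaCl, was at 76.5 ± 4.9 FPKM with trehalose and PEG6000 and 75.7 ± 5.1 FPKM under PEG6000 (SD, n = 3 each), a log2 change of 0.02 with a 95% interval of -0.14 to 0.17. The difference from its change under NaCl was -3.91 (SE 0.11, limma adjusted p = 4.05e-19). For Vitvi11g00900 the effects were close, at 10.2 ± 0.73 FPKM with trehalose and PEG6000 and 158 ± 3.0 FPKM under PEG6000, and the difference between the effects was 0.14 with a 95% interval of -0.07 to 0.35.

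Genes with a mean of 5 FPKM or more in trehalose+NaCl or NaCl leaves were ranked by the difference between both settings. Those already named, and those whose trehalose+NaCl and NaCl libraries overlapped, were left out. The 2 most negative differences belonged to genes that trehalose raised under PEG6000 and lowered under NaCl. Vitvi02g01358 was at 17.8, 19.3 and 18.2 FPKM with trehalose and NaCl, against 28.9, 28.9 and 30.3 FPKM under NaCl. It was at 83.1 ± 1.9 FPKM with trehalose and PEG6000 and 0.408 ± 0.26 FPKM under PEG6000 (difference -6.56, SE 0.14, limma adjusted p = 9.47e-21). Vitvi05g02019 had the same shape, falling to 15.4, 15.5 and 11.6 FPKM with trehalose and NaCl, against 22.9, 27.3 and 26.6 FPKM under NaCl, and rising to 62.6 ± 2.0 FPKM with trehalose and PEG6000, against 0.430 ± 0.15 FPKM under PEG6000 (difference -6.30, SE 0.14, limma adjusted p = 1.64e-20).

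The difference was positive for Vitvi02g01408, at 12.5, 13.0 and 10.9 FPKM with trehalose and NaCl, against 15.7, 14.2 and 15.9 FPKM under NaCl. With trehalose and PEG6000 it was at 0.601 ± 0.22 FPKM, against 126 ± 2.1 FPKM under PEG6000 (difference 6.01, SE 0.13, limma adjusted p = 7.2e-21). PT_newGene_31, one of the identifiers of a second kind in the table, was at 2.31, 2.30 and 2.47 FPKM with trehalose and NaCl, against 5.75, 6.46 and 5.49 FPKM under NaCl. It was at 3.05 ± 0.53 FPKM with trehalose and PEG6000 and 367 ± 4.9 FPKM under PEG6000 (difference 5.48, SE 0.10, limma adjusted p = 1.19e-21). Both fell in each setting, by far more under PEG6000, where their levels without trehalose were also far higher.

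In the cold trehalose raised more of the genes lowered under NaCl than it lowered. The Pearson correlation of the effects across all genes was 0.02 and the Spearman correlation 0.15, with no shared library. Limma called a difference for 9311 genes, 1001 (4.99%) at least 2-fold towards a lower and 237 (1.18%) towards a higher value under NaCl. These counts were 1634 and 498 with a pseudocount of 0.1, and 586 and 153 when a mean of 5 FPKM was required. At any fold, 31% of the called differences were towards a higher value, against 50.4% by median-of-ratios scaling and 53.1% by quantile normalization. Of the 717 genes lowered under NaCl, 291 (40.6%, against 26.5% of all genes tested) were higher with trehalose in the cold and 151 (21.1%, against 17.1%) lower, with a median change of 0.13. At least 2-fold, 53 rose (7.39%, against 0.848% of all genes), 31.2% of the 170 genes so raised in the cold, and 8 fell (1.12%, against 0.329%). Of the 173 raised genes, 78 (45.1%) were higher and 24 (13.9%) lower with trehalose in the cold. The difference was most extreme for Vitvi02g00393 (-4.67) and Vitvi12g02353 (3.78), whose values under NaCl are given above; the genes described next were chosen after leaving out those already named.

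The 53 genes that fell under NaCl and rose in the cold had group means with a median of 1.09 FPKM with trehalose and NaCl and 5.57 FPKM under NaCl, and of 20.7 FPKM with trehalose and cold and 6.25 FPKM in the cold. The PEG6000 libraries were in neither contrast that chose them. Under PEG6000, 51 of the 53 were lower with trehalose, as were 89.4% of the 717 and 32.9% of all genes. At least 2-fold, 44 fell (71.4% of the 717 and 8.70% of all genes did), and the median log2 change of the 53 was -3.48. PT_newGene_27 was at 0.965, 1.30 and 1.29 FPKM with trehalose and NaCl, against 9.03, 8.92 and 7.80 FPKM under NaCl, and at 81.8 ± 5.5 FPKM with trehalose and cold and 15.6 ± 0.86 FPKM in the cold (SD, n = 3 each; difference -4.45, SE 0.12, limma adjusted p = 9.44e-19). Vitvi16g04349 was at 0.928, 0.847 and 0.931 FPKM with trehalose and NaCl, against 8.17, 6.87 and 7.93 FPKM under NaCl, and at 83.3 ± 1.6 FPKM with trehalose and cold and 19 ± 0.41 FPKM in the cold (difference -4.26, SE 0.15, limma adjusted p = 1.32e-16). Both were low without stress, at 0.877 ± 0.27 and 0.460 ± 0.19 FPKM with trehalose and at 0.812 ± 0.12 and 0.545 ± 0.24 FPKM in control leaves.

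Genes that moved the other way included an abundant one. Vitvi19g00581 was at 1679, 1716 and 1719 FPKM with trehalose and NaCl, against 389.6, 397 and 396 FPKM under NaCl, whereas in the cold it fell to 1281 ± 64 FPKM with trehalose, against 2412 ± 12 FPKM without it (SD, n = 3 each; difference 3.02, SE 0.05, limma adjusted p = 2.64e-23). Vitvi07g02362 was at 12.4, 12.6 and 13.6 FPKM with trehalose and NaCl, against 5.0, 4.43 and 5.18 FPKM under NaCl, and at 32.5 ± 0.95 FPKM with trehalose and cold, against 83.6 ± 3.6 FPKM in the cold (difference 2.58, SE 0.10, limma adjusted p = 6.27e-16). Both rose under NaCl and fell in the cold. With trehalose under PEG6000 they also rose, by log2 changes of 2.28 and 6.86, against 2.11 and 1.24 under NaCl.

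A small group of genes was highest, among the groups with and without salt, where trehalose and NaCl met. In 26 of the 173 raised genes the trehalose+NaCl level was called at least 2-fold above that of NaCl, control and trehalose leaves alike. Their median level was 9.91 FPKM with trehalose and NaCl, beside 2.91 FPKM under NaCl, 1.23 FPKM with trehalose and 1.03 FPKM in control. That trehalose+NaCl stood highest of these groups follows from the choice of the genes. The median was 7.53 FPKM with trehalose and cold, 6.83 FPKM in the cold, 7.36 FPKM with trehalose and PEG6000 and 5.56 FPKM under PEG6000. These libraries were in none of the contrasts that chose the 26 genes. With trehalose under PEG6000, 17 of the 26 were higher and 7 lower, where 43.6% of all genes were higher and 32.9% lower. In the cold 8 were higher and 2 lower with trehalose, where 26.5% of all genes were higher and 17.1% lower, so the 8 higher and the 7 lower genes are shares near those of all genes. Without stress, whose libraries took part in the choice, trehalose raised 3 and lowered 3, where 16.7% of all genes were higher and 12.3% lower.

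The lowered genes were unevenly spread over the identifiers. In the Vitvi scheme the 2 digits after the prefix number the chromosome. Of the 705 tested genes numbered to chromosome 16, 62 (8.79%) fell and 20 (2.84%) rose at least 2-fold, while on the other 18 numbered chromosomes the shares ran from 1.81% to 4.74% for falls and from 0.408% to 1.63% for rises. Of 283 identifiers numbered 00, 14 (4.95%) fell. Among the numbered chromosomes, 16 held the highest share of both under each of the 4 scalings, the deposited one included. Of the 475 tested PT_newGene identifiers, 42 (8.84%) fell and 1 rose. These 42 genes had a median of group means of 0.857 FPKM with trehalose and NaCl and 5.52 FPKM under NaCl. In other libraries, 39 of the 42 and 55 of the 62 on chromosome 16 rose 2-fold under PEG6000 relative to control, and 34 and 41 fell 2-fold with trehalose under PEG6000. Of all 717 lowered genes 88.6% and 71.4% did so, and of all genes tested 14.4% and 8.70%, and a difference of these subsets from the whole lowered set was not tested. Genes of 1 family can lie side by side and share reads, so neighbouring or near-identical genes are not independent counts.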

How the data were processed

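Leaf RNA of 24 samples was sequenced, and the authors deposited 1 table of FPKM values with a separate column for each sample. Tools listed, with no role, in the submitters' processing notes are StringTie 2.1.3b, SAMtools 1.9, HISAT2 2.1.0 and fastp 0.20.0. The genome build and annotation were not given in the sources used here, nor was strandedness, so reads of near-identical, overlapping or antisense genes may have been divided by the authors' estimation. FPKM ties each gene to its library's total. Depth is unknown. Ratios of low values (0 to 0.2 FPKM, 1668 genes) between 2 trehalose+NaCl libraries showed no steps, the fullest 2% window holding 2.40% of them, so whole reads were not recovered.

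Columns were matched to samples by name, with 0 left unused. The 20053 genes reaching 1 FPKM in 3 or more libraries were tested as log2(FPKM + 1) in limma 3.58.1 (R 4.3.3; lmFit, eBayes with a variance trend; 1 mean for each of 8 groups, 16 residual degrees of freedom). Tests were two-sided, with Benjamini-Hochberg adjustment over all genes of a comparison. Calls needed an adjusted p under 0.05, and 2-fold calls also a log2 change of 1 or more in size. The comparisons were trehalose+NaCl against NaCl, and the difference of this effect from the trehalose effect without stress, in the cold and under PEG6000. The procedure was tested on simulated data. Figures used Python 3.11.15 and matplotlib 3.10.9.

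The rule for named genes took, per test, the 2 called genes with the largest positive and the 2 with the most negative log2 value, 1 or more in size, a mean reaching 5 FPKM in trehalose+NaCl or NaCl, no overlap between these groups, and no earlier naming. Lists of pathway genes and cell type markers could not be matched to identifiers and were not used. The groups compared, lists and tests were chosen with earlier results of these data known. The 17, 53, 26, 62 and 42 gene subsets were chosen after values were seen. Alternatives covered pseudocount, filter, 3 other scalings, variance trend, libraries in the fit, a replicate block and leaving out each library.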

Additional observations from a re-analysis of the deposited data

Results flagged for a closer look

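The trehalose effect differed between settings by limma's test of the difference itself, at a Benjamini-Hochberg adjusted p below 0.05, for 8616 genes between NaCl and no stress, 9311 between NaCl and cold and 12034 between NaCl and PEG6000. Against no stress, the log2 difference was 2.65 for Vitvi12g02353, 2.25 for Vitvi19g02039, -3.63 for Vitvi04g04434 and -3.62 for Vitvi11g00900. Against cold it was 3.02 for Vitvi19g00581, 2.58 for Vitvi07g02362, -4.45 for PT_newGene_27 and -4.26 for Vitvi16g04349. Against PEG6000 it was 6.01 for Vitvi02g01408, 5.48 for PT_newGene_31, -6.56 for Vitvi02g01358 and -6.30 for Vitvi05g02019. With 3 libraries per group, single outlying libraries were not searched for.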

How the results depend on the processing

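The 16 named genes kept direction and call under every alternative that tested them, 327 values in all. Leaving out 1 library at a time gave 709 to 733 genes lowered and 167 to 182 raised 2-fold in the NaCl comparison. Replicate numbers did not pair the libraries: deviations of same-numbered trehalose+NaCl and NaCl libraries correlated at -0.02, 0.03 and -0.02, and 1 of 3 libraries correlated best with its own number. With the number as a block, 10352 genes were called, 716 of them 2-fold lower and 173 higher. All 643 genes lowered 2-fold by median-of-ratios scaling were among the 717.

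Counts of 2-fold genes moved by over 1.5 times with the pseudocount and the filter, given as higher and lower. A pseudocount of 0.1 gave 444 and 1238 for trehalose+NaCl against NaCl, 224 and 1502 for the difference from no stress, and 498 and 1634 for that from cold. A pseudocount of 0.01 gave 483 and 1301, 240 and 1462, and 518 and 1651. Requiring a mean of 5 FPKM left fewer genes and gave 108 and 463 for the NaCl comparison, 507 lower for no stress, 153 and 586 for cold and 553 and 860 for PEG6000, where 5345 were called lower at any fold. Median-of-ratios scaling called 4479 genes higher in the difference from cold, and 6211 higher and 5253 lower in that from PEG6000, where the deposited values gave 3987 and 8047. The median of all genes in these differences moved to 0.015 and 0.031 with that scaling, against -0.091 and -0.126 as deposited. Quantile normalization called 4845 higher (148 of them 2-fold) in the difference from no stress and 4893 in that from cold. Of the called differences from no stress, cold and PEG6000, 33.2%, 31% and 33.1% were higher as deposited, 48.5%, 50.4% and 54.2% by median-of-ratios scaling and 54.5%, 53.1% and 45.9% by quantile normalization. By construction these 2 scalings align the libraries' medians or distributions. Depth, and with it the counting error of low values, is unknown.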
